A study of Rattus norvegicus with 10 samples.

Results

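The cytosolic ribosome is built from ribosomal RNA and a large set of ribosomal proteins, named Rpl in the large subunit and Rps in the small one. Their genes were taken as the probes whose symbol begins with Rpl or Rps and a digit, or is Rpsa, Rplp0, Rplp1 or Rplp2, with the Rps6k kinases left out. The rule used no measured value. It gave 111 of the 41012 non-control probes of the array, for 76 of the 13426 genes with a symbol, of which 44 belonged to the large subunit, 29 to the small subunit and 3 to the ribosomal stalk. A single probe stood for 50 genes, and 26 genes had more.

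Ribosomal proteins are made in near equal amounts and assembled with ribosomal RNA in the nucleolus. Their mRNAs typically start with a C followed by a run of pyrimidines, the 5′ terminal oligopyrimidine tract, through which the mTORC1 kinase pathway and the RNA-binding protein Larp1 control their translation. When ribosome assembly is disturbed, free Rpl5 and Rpl11 bind the ubiquitin ligase Mdm2 and so connect the ribosome to p53, the transcription factor activated by DNA damage. The hepatocyte, which secretes most plasma proteins, devotes much of its RNA to ribosomes.

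Livers of male Wistar rats were compared in 3 groups. The control rats (n = 3) received 0 Gy. The TBI rats (n = 3) received total-body irradiation of 6.5 Gy from a 60Co source, the dose in the labels. The study's text, captions and gene table name a slightly lower dose for this work and do not name 6.5 Gy. The MASM + TBI rats (n = 4) were given MASM, a derivative of the alkaloid matrine, intragastrically at 30 mg/kg per day for 3 days and then received 6.5 Gy. Liver RNA was taken at 24 h from each rat and hybridised to 1 array, so every n is a number of rats. No group received MASM without irradiation. Whole liver was used, in which fewer cells of a type and less RNA per cell cannot be told apart.

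Several facts of the arrays bear on the results. The control arrays shared slide 1 with the array of MASM + TBI rat 3. The remaining MASM + TBI arrays were on slide 3. All TBI arrays were on slide 2, so TBI and its slide cannot be told apart. The share of spots well above background was 56.2% to 60.2% on the control and MASM + TBI arrays and 64.1% to 70.1% on the TBI arrays, with TBI rat 3 the highest. All 10 hepatocyte markers measured were well above background on every array. A heat map of the study puts the arrays labelled 0 Gy under TBI and those labelled 6.5 Gy under the control heading, and the GEO labels were followed. A table of the study lists the transcription factor gene Myc as raised by TBI, which is the direction given by the labels. Under the labels, Myc had log2 fold changes of 1.77 in TBI and 1.34 in MASM + TBI livers (SE 0.52 and 0.48, limma, adjusted p = 0.0878 and 0.201), and Mdm2 rose in both. Of 5 cycling-cell genes measured, the 3 that were well above background on every control and TBI array fell in TBI livers, with log2 fold changes of -1.81 to -3.50, and the other 2 were so on all control arrays and on 0 and 1 of the 3 TBI arrays.

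The transcript starts of the members are shown first, since the pyrimidine tract is the sequence feature for which these mRNAs are best known. Of the 76 genes, 60 had an entry in the RefSeq promoter table (build GRCr8, the first start listed for each gene). A C followed by at least 4 pyrimidines stood at the annotated start in 22 of the 60, or 36.7%, against 2.63% of all 27457 genes of the table. In these 22 genes the run was 5 to 12 bases long, with a median of 7.5. The windows below run from 10 bases before to 20 bases from the start, on the strand of the gene, with the tract in capitals. Rpl19, Rps26, Rplp0 and Rplp1 had the tract at the annotated start, and Rps19, Rpl3, Rpl5 and Rps6 did not.
Rpl19 (chr10:83519054-83519083, plus strand): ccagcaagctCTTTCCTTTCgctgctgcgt
Rps26 (chr7:1643385-1643414, minus strand): ccgccgggtcCTCTTTCgagtcttggctcc
Rplp0 (chr12:46718371-46718400, minus strand): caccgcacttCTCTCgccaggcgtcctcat
Rplp1 (chr8:71290853-71290882, minus strand): cgcatgtgatCCTTTCCTCagctgccgcca
Rps19 (chr1:89608678-89608707, plus strand): cttgtgcgcccgggaaaccccgtcgttccc
Rpl3 (chr7:113507971-113508000, minus strand): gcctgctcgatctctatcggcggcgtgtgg
Rpl5 (chr14:1995206-1995235, minus strand): ctttcccacgtcgcttgcgtcctggaggtg
Rps6 (chr5:106420521-106420550, minus strand): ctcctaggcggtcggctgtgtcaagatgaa

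The Rpl3 start began with T and then ran CTCTATC, so that it missed the definition by its first base. A start annotated some bases away from the one used in liver would hide a tract, and liver starts were not measured here.

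The 250 bases before the start were searched on both strands for 4 strings that recur in promoters of housekeeping genes. The palindrome TCTCGCGAGA stood in 11.7% of the 60 members and in 0.393% of all 27457 genes. CCGGAAG, the core bound by ETS factors, stood in 25% of members and 7.74% of all genes. GGGCGG, the GC box, stood in 58.3% and 32.4%, and CACGTG, the E box bound by Myc and its partners, in 5% and 5.79%. No string contains another. The promoters of the genes with an adjusted p under 0.05 in a comparison with control are printed because no other members passed that threshold. Capitals mark the matches. The Rps19 promoter held 1 palindrome, the Rpl3 promoter 1 GC box, and the Rpl19 promoter none of the 4 strings.
Rps19 (chr1:89608438-89608687, plus strand): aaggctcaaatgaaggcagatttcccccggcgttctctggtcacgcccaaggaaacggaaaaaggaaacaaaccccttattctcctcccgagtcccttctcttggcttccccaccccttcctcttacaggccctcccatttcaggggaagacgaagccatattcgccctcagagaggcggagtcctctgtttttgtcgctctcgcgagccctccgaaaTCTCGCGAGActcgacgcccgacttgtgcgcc
Rpl19 (chr10:83518814-83519063, plus strand): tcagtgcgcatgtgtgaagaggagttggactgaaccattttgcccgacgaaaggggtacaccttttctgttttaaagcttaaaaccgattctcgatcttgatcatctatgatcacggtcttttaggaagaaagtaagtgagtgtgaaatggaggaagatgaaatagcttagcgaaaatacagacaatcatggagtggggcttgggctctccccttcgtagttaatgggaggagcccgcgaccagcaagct
Rpl3 (chr7:113507991-113508240, minus strand): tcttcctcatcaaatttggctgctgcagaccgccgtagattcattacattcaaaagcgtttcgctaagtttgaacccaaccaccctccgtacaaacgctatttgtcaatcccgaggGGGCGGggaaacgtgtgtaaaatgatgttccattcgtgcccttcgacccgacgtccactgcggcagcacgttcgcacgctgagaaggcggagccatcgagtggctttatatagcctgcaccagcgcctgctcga

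The first question was how bright and how steady the members were in rat liver. Values are log2 of the spot intensity after quantile normalization between the 10 arrays, and levels of different probes are not set against each other. On all 10 arrays, 109 of the 111 probes were well above background. The exceptions were the second probe of Rpl28, which was not so on any array, and the probe of Rps12l4, a gene named as like Rps12. The median SD between rats of a group was 0.101 for the 111 probes, against 0.131 for the 1955 probes of the array with a mean log2 signal of at least 12 and 0.254 for all probes. Over 75 genes and the 10 rats, the deviations of pairs of members from their group means had a median correlation of 0.34, and 72.9% of the 2775 pairs were positive. These deviations share the arrays and their normalization, and the value is a description.

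For TBI against control, most members stood slightly higher after irradiation, and few passed the test. Over the 76 genes, each by its brightest probe, the median log2 fold change was 0.17, with 66 genes above 0 and 10 below. The median over all 40945 probes tested was -0.03, over probes well above background on every array -0.02, and over the bright probes with a mean log2 signal of at least 12 it was 0.00. Large and small subunit genes had similar medians of 0.16 and 0.17. With the limma test and an adjusted p under 0.05, 3 of the 111 probes were higher and 0 lower, or 2.70%, while 5.63% of all probes passed, 2.44% higher and 3.19% lower. At an unadjusted p under 0.05, 30 member probes were higher and 0 lower, against 10.6% and 12.9% of all probes. The threshold of the study, which adds a fold change of at least 1.5, left 1 member probe higher (Rps19) and 0 lower, against 6.53% and 6.09% of all probes. All TBI rats lay above all control rats for 34 member probes, or 30.6%, against 11.3% of all probes, and below them for 1 (Rplp0), against 19.0%. With the replicate number as a block, 3 probes passed the adjusted threshold, or 2.7% against 2.57% of all probes, and 18 the unadjusted one. Counted in either direction, the shares of the members lay near those of the array, with 27% of member probes under the unadjusted threshold against 23.5% of all probes and 26.3% of the bright ones, and 31.5% without overlap against 30.3% and 31.4%. Under several alternatives the members' share at the unadjusted threshold was below that of all probes. It was 16.2% against 32.2% with each array scaled to its 75th percentile, 12.6% against 20.3% with a model of these groups alone, and 16.2% against 21.8% with the replicate block. Without control rat 2, control rat 3 or TBI rat 2 it was 13.5%, 8.11% and 11.7% against 20.7%, 18.4% and 20.9%. Without control rat 1 or TBI rat 3 it was 39.6% and 40.5% against 19.7% and 23.5%.

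**Figure D1:**
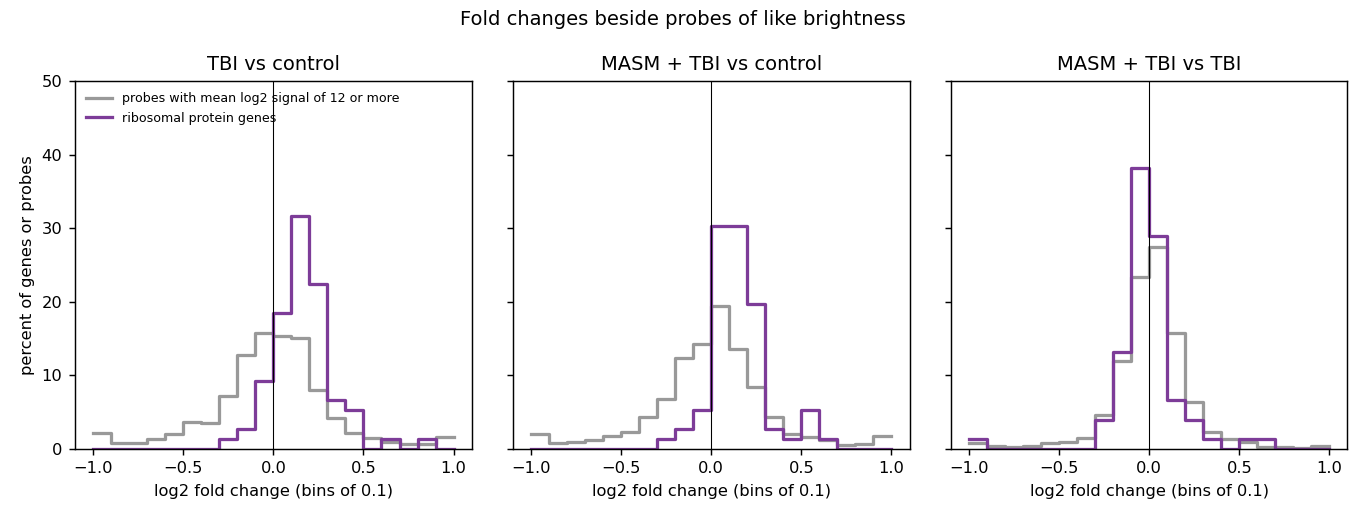
Share (y axis, percent) of the 76 ribosomal protein genes and of the 1955 probes with a mean log2 signal of at least 12 in bins of 0.1 of log2 fold change (x axis), with values past 1 or -1 placed in the end bins. The members lie to the right of the bright probes in both comparisons with control, with medians of 0.17 and 0.13 against 0.00 and 0.02, and around 0 for MASM + TBI against TBI, with medians of -0.02 and 0.02.

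The rats of a group did not all show the shift equally. The median over the 76 genes of each rat's distance from the control mean was 0.09, -0.04 and -0.05 in control rats 1, 2 and 3. It was 0.19, 0.21 and 0.07 in TBI rats 1, 2 and 3. In MASM + TBI rats 1, 2, 3 and 4 it was 0.14, 0.09, 0.11 and 0.17. Control rat 1 thus stood as high as MASM + TBI rat 2 and above TBI rat 3, so the groups overlapped on this measure. The same median over the bright probes ran from -0.02 to 0.04 across the 10 rats. Markers of other cells moved with the groups too. The mean log2 level of the 5 cycling-cell genes, 2 of them well above background on every array, was 6.96 to 7.81 in control, 3.86 to 4.48 in TBI and 3.57 to 4.98 in MASM + TBI livers, and the mean for 12 T and B lymphocyte markers was 5.01 to 5.25, 3.64 to 4.27 and 3.76 to 4.22. Among the lymphocyte markers, Cd3e and Cd5 were on no array well above background. Of 5 erythroid markers, 2 were higher and 2 lower in TBI and 1 higher and 3 lower in MASM + TBI livers at an unadjusted p under 0.05 against control, or 80% in each, where 23.5% and 17% of all probes passed. Their mean log2 level was 7.15 to 8.57 in control, 7.54 to 8.14 in TBI and 7.21 to 7.89 in MASM + TBI livers. All 7 Kupffer cell markers, of the resident macrophages of the liver, were well above background on every array. Their log2 fold changes in MASM + TBI against TBI were all below 0, with a median of -0.74 and 5 lower at an unadjusted p under 0.05, or 71.4% against 7.47% of all probes, and 0 past the adjusted threshold (limma). Their mean log2 level was 11.82 to 12.52 in control, 12.12 to 12.83 in TBI and 11.74 to 12.09 in MASM + TBI livers. Of 5 stellate cell markers, Lrat, which esterifies retinol, fell in both comparisons with control, by 0.62 and 0.60 on the log2 scale (SE 0.10 and 0.09, limma, adjusted p = 0.0116 and 0.0147). It alone of that list passed the adjusted threshold, or 20%, against 5.63% and 2.99% of all probes. In each comparison 3 of the 5 stellate markers stood above 0, with list medians of 0.01 and 0.12. Of 3 markers of sinusoidal endothelium, 2 were higher in TBI livers at an unadjusted p under 0.05, or 66.7%, against 10.6% of all probes. In MASM + TBI livers 1 was higher, or 33.3%, against 8.48% of all probes. Of the 10 hepatocyte markers, 2 were higher and 1 lower in TBI livers, or 30%, near the 23.5% of all probes. In MASM + TBI livers 4 were higher and 1 lower, or 50%, against 17% of all probes. The part of these cells in the ribosomal protein values was not tested.

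**Figure D2:**
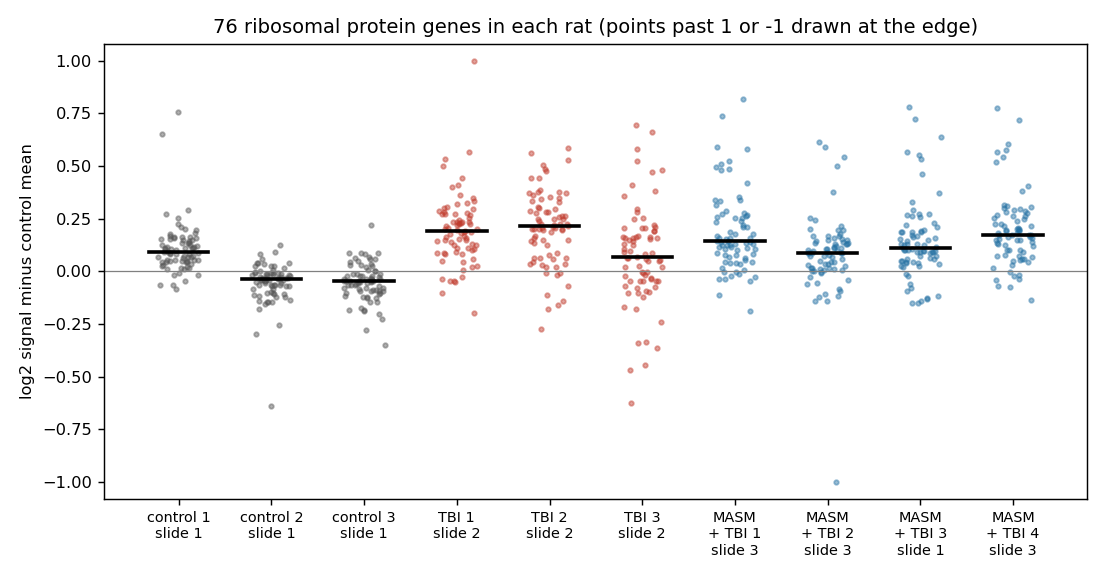
Each point is 1 of the 76 ribosomal protein genes in 1 rat, as its log2 signal minus the control mean (y axis), by rat and slide (x axis); the bar is the median of that rat, and values past 1 or -1 are drawn at the edge. The medians run from -0.05 to 0.09 in control rats, 0.07 to 0.21 in TBI rats and 0.09 to 0.17 in MASM + TBI rats.

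Rps19, a small subunit protein whose mutation causes Diamond-Blackfan anaemia, gave the clearest difference. Its log2 level was 14.45, 14.39 and 14.35 in control rats 1 to 3, and 14.96, 14.98 and 15.06 in TBI rats 1 to 3. It was 14.99, 15.01, 14.96 and 15.01 in MASM + TBI rats 1 to 4. All 7 irradiated rats lay above all controls, and both irradiated groups covered nearly the same range. The log2 fold change was 0.60 (SE 0.07, limma, adjusted p = 0.00282) in TBI and 0.59 (SE 0.06, limma, adjusted p = 0.00263) in MASM + TBI livers, folds of 1.52 and 1.51. The calls were lost by the methods' t-test (adjusted p = 0.129 and 0.103), and that of MASM + TBI also with the replicate block (limma, adjusted p = 0.058). Between MASM + TBI and TBI it was -0.01, with a 95% interval of -0.15 to 0.13.

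Rpl19, a large subunit protein that reaches across to the small subunit, was read by a pair of probes. On the brighter probe its log2 level was 15.02, 15.03 and 15.03 in control rats and 15.47, 15.56 and 15.50 in TBI rats. MASM + TBI rats had 15.52, 15.57, 15.49 and 15.55. Again every irradiated rat was above every control rat, and the controls lay within 0.008 of their mean. The log2 fold change was 0.48 (SE 0.06, limma, adjusted p = 0.00595) in TBI and 0.50 (SE 0.06, limma, adjusted p = 0.00454) in MASM + TBI livers. The second probe gave 0.53 in both comparisons (limma, adjusted p = 0.00484 and 0.0045). In TBI the calls of both probes were lost by the methods' t-test (adjusted p = 0.21 and 0.162). In MASM + TBI livers they were lost with the replicate block (limma, adjusted p = 0.0677 and 0.0719) and with slide as a fixed block (limma, adjusted p = 0.0684 and 0.0535), and that of the second probe also by the methods' t-test (adjusted p = 0.155). The difference between MASM + TBI and TBI was 0.02 on the brighter probe, with a 95% interval of -0.11 to 0.16.

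Rpl3, which lines the catalytic centre of the large subunit, differed with less certainty. Its log2 level was 12.23, 12.08 and 12.12 in control rats, and 12.51, 12.62 and 12.67 in TBI rats. MASM + TBI rats had 12.96, 12.52, 12.92 and 12.86. The irradiated rats all lay above the controls, and MASM + TBI rat 2 was the lowest of its group. Against control the log2 fold change was 0.67 (SE 0.12, limma, adjusted p = 0.0222) in MASM + TBI livers, and 0.46 in TBI livers (SE 0.12, limma, adjusted p = 0.072). The difference between MASM + TBI and TBI was 0.22, with a 95% interval of -0.05 to 0.48. The MASM + TBI call was lost without control rat 2 or 3 or MASM + TBI rat 1, 3 or 4 (limma, adjusted p from 0.0531 to 0.0887), and with the replicate block or the methods' t-test (adjusted p = 0.108 and 0.149). With slide as a fixed block the contrast rests on MASM + TBI rat 3 alone, and it was 0.78 (limma, adjusted p = 0.114). The TBI value passed without MASM + TBI rat 2, with 75th percentile scaling and with slide as a random block (limma, adjusted p = 0.0296, 0.0396 and 0.0219). Of all probes 4.46%, 18.2% and 16.5% passed in those fits, against 5.63% in the main fit.

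**Figure D3:**
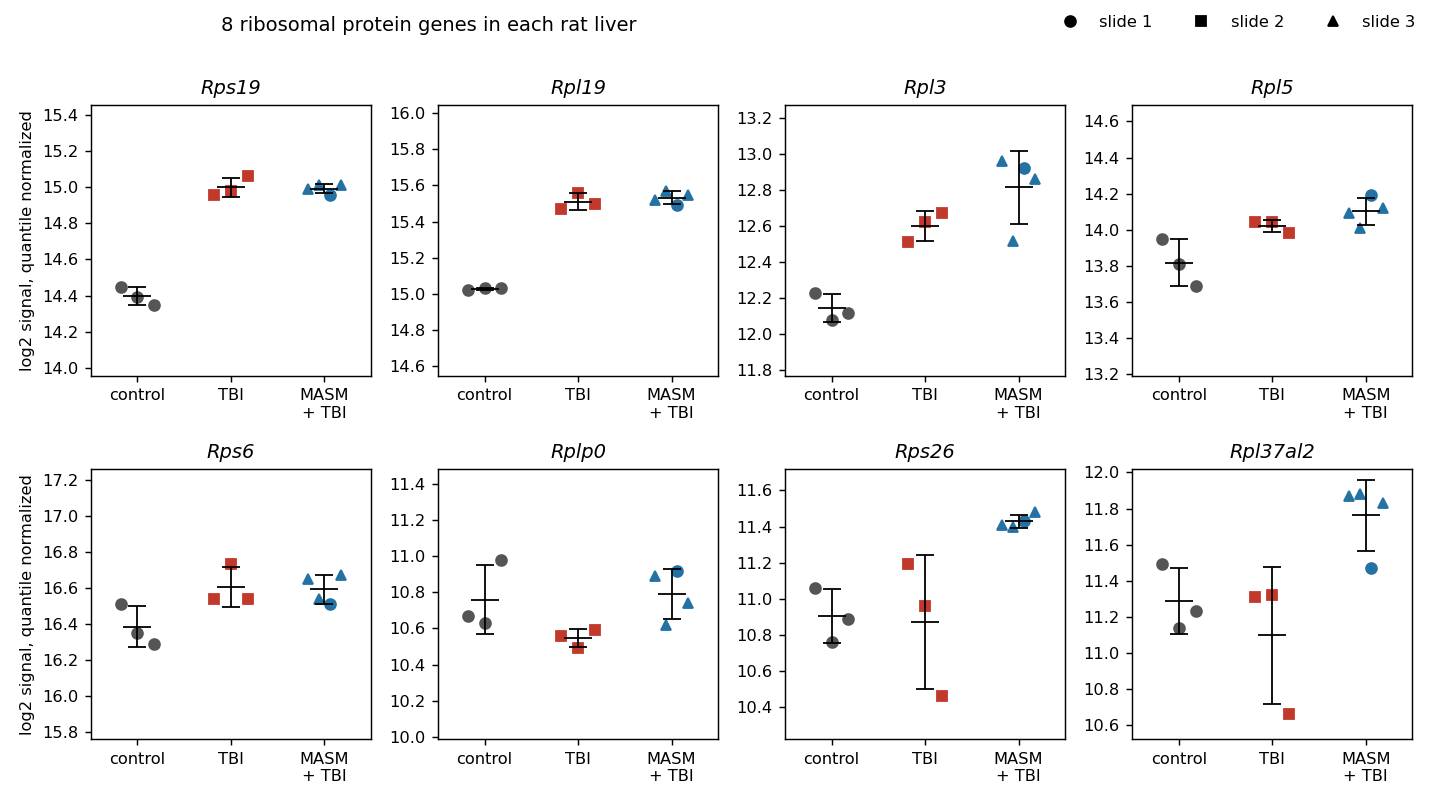
Log2 signal (y axis, each panel spanning 1.5 units) of 8 ribosomal protein genes by group (x axis), 1 point per rat with the marker giving the slide, and the mean with its SD (n = 3, 3 and 4). Rps19, Rpl19, Rpl3 and, by a narrow margin, Rpl5 separate the irradiated rats from the controls, also for MASM + TBI rat 3 on the slide of the controls. Rpl5, Rps6 and Rplp0 shift by 0.29 or less.

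Among the other members with an unadjusted p under 0.05 in TBI against control, Rpl14 and Rpl23a had the largest estimates, neither past the adjusted threshold. Rpl23a, at the mouth of the tunnel through which the new protein leaves, had levels of 12.65, 12.66 and 12.40 in control rats and 12.85, 12.95 and 13.04 in TBI rats, which did not overlap, and a log2 fold change of 0.37 (SE 0.10, limma, adjusted p = 0.0781). Rpl14, a large subunit protein, had 16.12, 15.89 and 15.59 against 16.36, 16.37 and 16.02, which overlapped, and a log2 fold change of 0.39 (SE 0.15, limma, adjusted p = 0.16). Rpl4, a large subunit protein, had a larger estimate of 0.43 with a wider error (SE 0.19, limma, adjusted p = 0.223), and its TBI and control rats did not overlap. The highest estimate of all, 0.81 for Rps12l4, had an SE of 0.81 and rested on a probe well above background on all 3 TBI arrays and on 0 of the other 7. Rpl13 had 0.46 with an SE of 0.31, which draws on the spread of all groups. Control rat 1 stood at 15.47 and the other controls at 14.52 and 14.47. MASM + TBI rat 2 stood at 14.76 and the others of its group at 15.37 to 15.59.

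The stalk proteins, which draw elongation factors to the ribosome, did not move together. Rplp2 had log2 levels of 14.64, 14.57 and 14.54 in control and 14.77, 14.85 and 14.77 in TBI rats, without overlap, a log2 fold change of 0.21 (SE 0.07, limma, adjusted p = 0.132). For Rplp1 it was 0.15 (SE 0.09, limma, adjusted p = 0.325), and control and TBI rats overlapped. Rplp0, the scaffold of the stalk and a common reference gene in PCR, had 10.67, 10.63 and 10.98 in control rats and 10.56, 10.49 and 10.59 in TBI rats. MASM + TBI rats had 10.89, 10.62, 10.92 and 10.74. TBI rats thus lay below all rats of both other groups. Its log2 fold change was -0.21 in TBI (SE 0.12, limma, adjusted p = 0.325) and 0.03 in MASM + TBI livers (SE 0.11, limma, adjusted p = 1). Without control rat 3, the highest of its group, these were -0.10 and 0.14.

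The proteins that bind Mdm2 were read through 11 measured genes. Their log2 fold changes ran from 0.01 to 0.29 in TBI and from 0.02 to 0.29 in MASM + TBI livers, with medians of 0.17 and 0.12, and none passed the adjusted threshold, with 4 and 2 higher at an unadjusted p under 0.05, or 36.4% and 18.2%, against 10.6% and 8.48% of all probes. Rpl5 had levels of 13.95, 13.81 and 13.69 in control, 14.04, 14.04 and 13.98 in TBI, and 14.09, 14.01, 14.19 and 14.12 in MASM + TBI rats. These groups of irradiated rats lay just above the controls, by 0.21 (SE 0.09, limma, adjusted p = 0.199) and 0.29 (SE 0.08, limma, adjusted p = 0.109). All 3 probes of Rpl5 gave positive values in both comparisons, from 0.21 to 0.43. Rpl11 had 0.17 and 0.14 (SE 0.08 and 0.07, limma, adjusted p = 0.219 and 0.386), with controls at 14.96, 14.93 and 14.89 and TBI rats at 15.13, 15.19 and 14.98. Mdm2 itself had a log2 fold change of 0.96 (SE 0.16, limma, adjusted p = 0.0162) in TBI and 1.37 (SE 0.15, limma, adjusted p = 0.00372) in MASM + TBI livers.

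Rps6, the small subunit protein phosphorylated by S6 kinase, had log2 fold changes of 0.22 and 0.21 in TBI and MASM + TBI livers (SE 0.09 each, limma, adjusted p = 0.209 and 0.275). Rpsa, also known as the laminin receptor, had 0.11 and 0.08 (SE 0.09 each, limma, adjusted p = 0.53 and 0.76). Of 17 measured genes in which mutations cause Diamond-Blackfan anaemia, Rps19 alone passed the adjusted threshold against control, or 5.88%, against 5.63% of all probes in TBI and 2.99% in MASM + TBI livers, and the medians were 0.17 in TBI and 0.07 in MASM + TBI livers. Rps4x, the form of Rps4 encoded on the X chromosome, had 0.29 and 0.30 (SE 0.11 and 0.10, limma, adjusted p = 0.171 and 0.192), and its irradiated rats did not overlap the controls. Genes with a pyrimidine tract at the annotated start had a median of 0.14 in TBI and 0.11 in MASM + TBI livers (n = 22 genes), and those without it 0.19 and 0.13 (n = 38 genes).

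**Figure D4:**
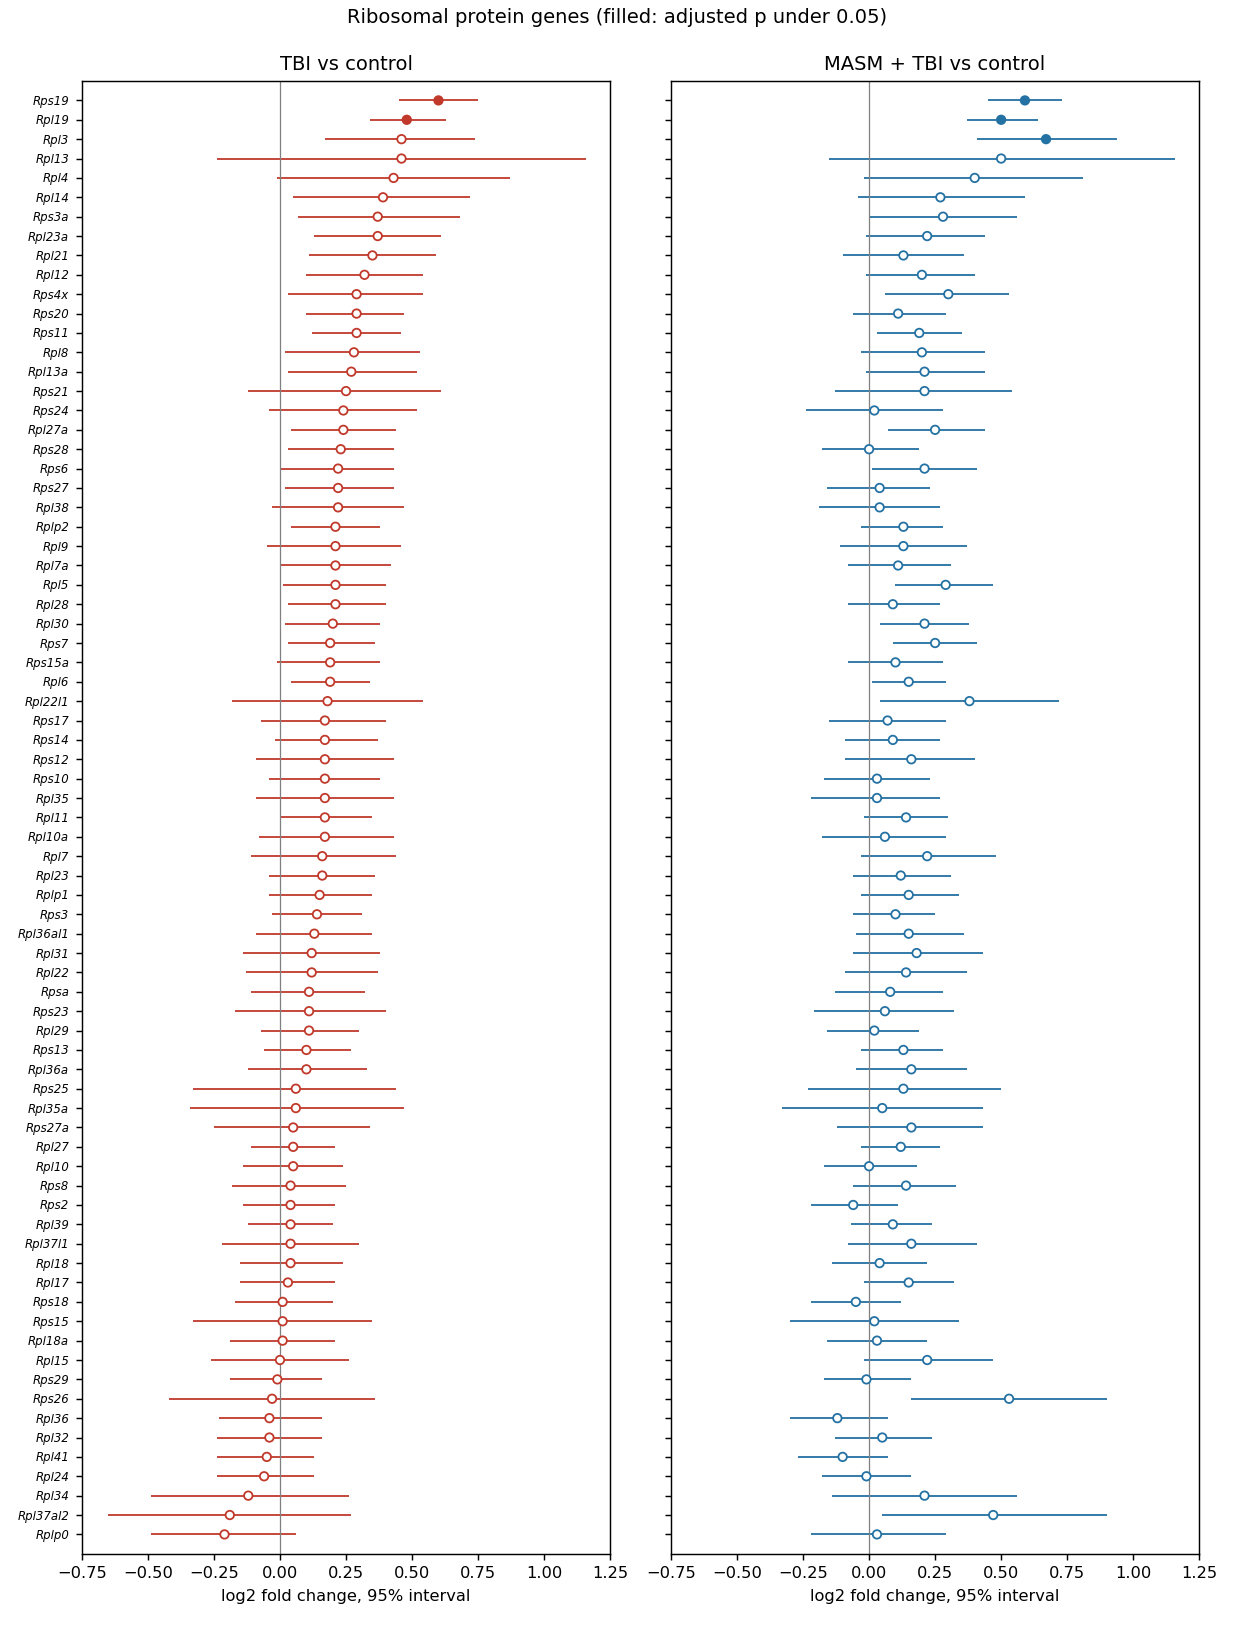
Log2 fold change (x axis) of ribosomal protein genes (y axis, ordered by the TBI value, 1 probe per gene) with 95% intervals from limma, against control in TBI (left) and MASM + TBI (right), filled where the adjusted p is under 0.05. Rps12l4, whose probe was well above background on the TBI arrays only, is left out. Most points lie between 0 and 0.3, and Rps19 and Rpl19 are filled on both sides and Rpl3 on the right.

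For MASM + TBI against control, which shares its control rats with the comparison above, the members stood higher by a similar small amount. The median over the 76 genes was 0.13, with 69 above 0 and 7 below, against 0.00 over all probes and 0.02 over the bright probes. Large subunit genes had a median of 0.15, small subunit genes 0.10 and the 3 stalk genes 0.13. Adjusted calls covered 4 member probes, all higher, or 3.60% (Rps19, both of Rpl19, and Rpl3), while 2.99% of all probes passed, 1.26% higher and 1.73% lower. At an unadjusted p under 0.05 there were 23 higher and 0 lower, against 8.48% higher and 8.48% lower over all probes, or in either direction 20.7% of members against 17% of all probes and 28% of the bright ones. That share was 44.1% against 15.2% of all probes with 75th percentile scaling, but 11.7% against 14.9% with the replicate block and 8.11% against 12.4% with slide as a fixed block. It was also below that of all probes without control rat 2 or 3 (10.8% against 14%, and 9.91% against 13%) and without MASM + TBI rat 1 or 4 (10.8% against 14%, and 13.5% against 14.6%). At the threshold of the study, 2 (Rps19 and Rpl3) were higher and 0 lower, against 3.52% and 4.55% of all probes. All MASM + TBI rats lay above all controls for 25 member probes, or 22.5%, against 9.35% of all probes, and below them for 1 (Rpl41), against 8.90%. Scaling each array to its 75th percentile gave a median of 0.28 in place of 0.13. Against the 3 controls on its own slide, MASM + TBI rat 3 gave a member median of 0.11, with log2 differences of 0.56 for Rps19, 0.46 for Rpl19 and 0.78 for Rpl3. That slide holds 1 irradiated rat, so these differences carry no spread for its group.

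Rps26, a small subunit protein at the channel where mRNA leaves, was higher in MASM + TBI rats than in the rats of both other groups. Its levels were 11.06, 10.76 and 10.89 in control rats, 11.19, 10.96 and 10.46 in TBI rats, and 11.41, 11.40, 11.43 and 11.48 in MASM + TBI rats. The MASM + TBI rats were tightly grouped and overlapped neither other group, whereas TBI rat 3 was the lowest of all. Neither difference passed the adjusted threshold, at 0.53 against control (SE 0.16, limma, adjusted p = 0.131) and 0.56 against TBI (SE 0.16, limma, adjusted p = 0.137). Without TBI rat 3 the values were 0.53 (limma, adjusted p = 0.0277) and 0.36 (limma, adjusted p = 0.13). Against control it also passed with normexp background correction and with a model of these groups alone (limma, adjusted p = 0.0347 and 0.0303). Against TBI it passed with 75th percentile scaling, normexp and slide as a random block (limma, adjusted p = 0.048, 0.0417 and 0.049). Of all probes 13.3%, 1.13% and 5% passed in those fits, against 1.63% in the main fit. All TBI arrays were on slide 2, so the random block cannot tell group and slide apart here.

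Rpl37al2, named as a gene like Rpl37a, showed the same order with wider scatter. Control rats had 11.49, 11.14 and 11.23, TBI rats 11.31, 11.32 and 10.66, and MASM + TBI rats 11.87, 11.88, 11.47 and 11.83. MASM + TBI rats lay above all TBI rats, and rat 3, on the slide of the controls, fell within the range of the controls. The log2 fold change was 0.66 against TBI (SE 0.19, limma, adjusted p = 0.134) and 0.47 against control (SE 0.19, limma, adjusted p = 0.242). Against TBI it passed with 75th percentile scaling and with slide as a random block (limma, adjusted p = 0.0454 and 0.0464). Of all probes 13.3% and 5% passed in those fits, against 1.63% in the main fit. Against control the log2 fold change was 0.18 with slide as a fixed block. Rpl22l1, the paralog of Rpl22, had 0.38 in MASM + TBI against control on its brighter probe and 0.55 on the other (SE 0.15 and 0.16, limma, adjusted p = 0.236 and 0.123), where Rpl22 had 0.14 (SE 0.10, limma, adjusted p = 0.573).

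For MASM + TBI against TBI, the comparison that asks what MASM pretreatment added, the ribosomal proteins centred near 0. The median over the 76 genes was -0.02, with 33 above 0 and 43 below, against 0.04 over all probes and 0.02 over the bright probes. With limma, 0 of the 111 probes passed the adjusted threshold while 1.63% of all probes did, 0.911% higher and 0.716% lower, and 4 were higher (Rpl37al2, Rps26 and 1 probe each of Rpl15 and Rpl36al1) and 1 lower at an unadjusted p under 0.05, against 9.49% and 7.47% of all probes. At the threshold of the study, 1 (Rpl37al2) was higher and 0 lower, against 3.15% and 4.83%. MASM + TBI rats lay wholly above TBI rats for 7 member probes and wholly below for 4 (of Rpl21, Rps15a, Rps20 and Rps28), against 12.7% and 5.88% of all probes. The methods' t-test also gave 0 adjusted calls among the members here, and 4 over all probes. The lower one at the unadjusted threshold was Rps28, a small subunit protein, with 16.45, 16.41 and 16.22 in TBI rats and 16.15, 16.15, 16.07 and 16.18 in MASM + TBI rats. Its log2 fold change was -0.22 (SE 0.08, limma, adjusted p = 0.215). Its second probe gave -0.07, and the groups overlapped there.

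Of the remaining paralog pairs, both genes were analysed only for Rpl36a and Rpl36al1. No analysed gene of these pairs passed the adjusted threshold in the main fit. Rpl36a had log2 fold changes of 0.10 in TBI and 0.16 in MASM + TBI livers, and Rpl36al1, named as a copy of it, 0.13 and 0.15. Rpl7 had 0.16 and 0.22, Rpl10 0.05 and 0.00, and Rpl39 0.04 and 0.09. Rps27 had 0.22 in TBI (SE 0.09, limma, adjusted p = 0.176) and 0.04 in MASM + TBI livers, and its TBI value passed when TBI rat 3 was left out (0.31, limma, adjusted p = 0.0377). Probes of the same gene agreed closely for most of the 26 genes with more than 1. In TBI against control their log2 fold changes differed by 0.01 for Rpl10 and 0.05 for Rpl19, and by most, 0.34, for Rpl13.

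The genes that build, feed and regulate the ribosome were set beside the members. Of 51 measured ribosome assembly factors, 5 rose in TBI livers and 0 fell, or 9.80%, against 2.44% of all probes higher and 3.19% lower, with a median of 0.15. The largest were Brix1, needed for the large subunit, at 0.67 (SE 0.13, limma, adjusted p = 0.028), and the kinase Riok2, which acts on the small subunit, at 0.57 (SE 0.13, limma, adjusted p = 0.0376). Nip7, Riok1 and Utp3, which also act in assembly, rose by 0.54, 0.45 and 0.41. In MASM + TBI livers 1 rose, Wdr43 of the small subunit processome, by 0.67 (SE 0.11, limma, adjusted p = 0.0218), with a median of 0.22 over the list, and this was 1.96% of the list against 2.99% of all probes. With 75th percentile scaling Wdr43 was not called, and 0 of the list were. At an unadjusted p under 0.05, 17 were higher and 0 lower in TBI, or 33.3% against 23.5% of all probes, and 17 higher and 1 lower in MASM + TBI livers, or 35.3% against 17%. Between MASM + TBI and TBI none passed with limma, with 1 higher and 5 lower at an unadjusted p under 0.05, or 11.8% against 17% of all probes.

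Of 63 mitochondrial ribosomal protein genes, 0 passed in TBI livers (limma, with 9 higher and 3 lower at an unadjusted p under 0.05, or 19% against 23.5% of all probes), with a median of 0.04. In MASM + TBI livers 1 rose, Mrpl50, by 0.49 (SE 0.10, limma, adjusted p = 0.0355), with a median of 0.13, and at the unadjusted threshold 15 were higher and 1 lower, or 25.4% against 17% of all probes. Between MASM + TBI and TBI 0 passed with limma, and 6 were higher and 0 lower at the unadjusted threshold, or 9.52% against 17%, with a median of 0.07. Of 40 translation factors, 0 passed in any comparison with limma, with 10, 14 and 2 under an unadjusted p of 0.05 for TBI and MASM + TBI against control and for MASM + TBI against TBI. These were 25%, 35% and 5% of the list against 23.5%, 17% and 17% of all probes. Their medians against control were 0.10 and 0.11. Fau, which encodes a ribosomal protein fused to a ubiquitin-like sequence and falls outside the symbol rule, had 0.19 in TBI livers. Rack1, a further ribosomal protein under its own name, had 0.29, and the elongation factors Eef1a1 and Eef2 had 0.30 and -0.11, none past the adjusted threshold.

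Of 20 measured genes of the mTORC1 and p53 axis, 3 rose and 1 fell in both comparisons with control, or 20%, against 5.63% of all probes in TBI and 2.99% in MASM + TBI livers. Mdm4, the partner of Mdm2, rose by 0.76 in TBI (SE 0.11, limma, adjusted p = 0.00703) and 0.61 in MASM + TBI livers (SE 0.10, limma, adjusted p = 0.0183). Sesn2, a stress gene that restrains mTORC1, rose by 0.98 and 0.85 (SE 0.14 each, limma, adjusted p = 0.00933 and 0.0173). Eif4ebp1, the translation repressor that mTORC1 inactivates, fell by 0.56 and 0.45 on the log2 scale (SE 0.08 each, limma, adjusted p = 0.00894 and 0.0216). Mdm2, the third to rise, is given above. None of the 20 passed between MASM + TBI and TBI, where Mdm2 had 0.41 (SE 0.15, limma, adjusted p = 0.229).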

How the data were processed

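Liver RNA of 10 rats was labelled with Cy3 and hybridised to 1 Agilent rat array each. The authors deposited the scanner output of Agilent Feature Extraction 10.7.3.1, whose processed signal is an intensity on a linear scale, background-subtracted and not normalized between arrays. A deposited table of values held the same intensities. Groups came from the labels, which give 6.5 Gy where the study's text, captions and gene table give a slightly lower dose. Slides came from the file headers.

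Control spots (1639 per array) and outlier spots were dropped. No non-control spot was saturated. The log2 intensities were quantile normalized, spots of 1 probe were averaged, and 40945 of 41012 probes had a value on every array. RefSeq accessions gave a symbol to 16968 probes. A probe counted as well above background by the scanner's flag. limma 3.58.1 in R 4.3.3 fitted 1 mean per group over all arrays, and p-values were adjusted by Benjamini-Hochberg over all probes, with a threshold of 0.05. The number of arrays limits the precision, and n counts rats. The test was checked on simulated data. Alternatives changed the scaling, background correction, filter, test, prior, blocks and the rats included. The members and lists were chosen with earlier results of these data known.

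Genes named were those past the adjusted threshold, where these were fewer than 6 also up to 3 rises and 3 falls at an unadjusted p under 0.05, a fixed set (stalk proteins, Rpsa, Rpl5, Rpl11, Rps6, Rps19, paralog pairs), Mdm2, Rack1, Fau, Eef1a1 and Eef2, and of each related list the 2 largest in each direction past the adjusted threshold. Rpl4, Rpl13, Rpl15, Rpl21, Rpl28, Rpl41, Rps12l4, Rps15a, Rps20, Nip7, Riok1, Utp3, Myc, Lrat and Mdm4 were named after their values were seen. Rps27l, Rpl3l, Rpl7l1, Rpl10l, Rpl39l and Rps4y2 were not analysed here. Values come from the fit without a replicate block. Same-numbered control and TBI rats correlated at 0.27, 0.16 and 0.14 in their deviations over 21341 probes well above background, so the counts with the replicate number as a block are given beside that comparison. The RefSeq table lists 839 pseudogene entries under the symbol rule, with a median of 11 and at most 36 per member. Whether the probes also bind such copies was not tested. Values of 2 single genes of the lists are not reported here.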

Additional observations from a re-analysis of the deposited data

Results flagged for a closer look

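Rpl37al2 in MASM + TBI rat 3 stood apart from the other rats of its group, at a log2 level of 11.47 against 11.83 to 11.88, a gap of 0.885 of the group's range, past Dixon's 95% critical value for 4 samples. This rat's array was on slide 1 with the controls and the other 3 were on slide 3, and the part of the slide was not tested. Of 25 such groups of 4 examined, 1 stood out, and chance gives about 1 in 20.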

How the results depend on the processing

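The number of arrays limits the precision, and the scanner flags set which signals count as measured. No direction was reversed under any alternative for a called member in a comparison in which it was called, and of 1416 values of named members under alternatives 17 lost and 16 gained an adjusted p under 0.05 (the cause was not tested). Rps19 and Rpl19 in TBI against control kept it under 18 of 19 alternatives, the exception being the methods' t-test (adjusted p = 0.129 and 0.21), which at the study's threshold gave 1, 2 and 0 member probes in the 3 comparisons, against 7.08%, 5.75% and 4.03% of all probes. In MASM + TBI against control each passed under 18 of 20, with adjusted p up to 0.103 and 0.0684, and Rpl3 under 12 of 20, slide 1 alone not counted since it holds 1 MASM + TBI rat. Rpl3 lost it without control rat 2 or 3 (0.0874 and 0.0887), or MASM + TBI rat 1, 3 or 4 (0.0685, 0.0531 and 0.064).

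Counts below are of the 111 member probes, first at an adjusted p under 0.05 and then at an unadjusted one. In TBI against control (3 and 30), 75th percentile scaling gave 5 and 18, normexp background correction 9 and 47, the methods' t-test 0 and 19, a trended and robust prior 5 adjusted calls, slide as a random block 13 and 48, and a model of the 2 groups 14 unadjusted calls. Leaving out each rat in turn gave 3 to 6 adjusted calls, the 6 without TBI rat 3, and 9 to 45 unadjusted ones, with 15 without control rat 2, 9 without control rat 3 and 13 without TBI rat 2. As shares of members and of all probes, the random slide block gave 11.7% and 16.5% adjusted and 43.2% and 33.3% unadjusted, normexp 8.11% and 5.42%, then 42.3% and 21.3%, and scaling 4.5% and 18.2%, then 16.2% and 32.2%. In MASM + TBI against control (4 and 23), scaling gave 49 unadjusted calls, normexp 10 and 40, the methods' t-test 1 adjusted call, the prior 36 unadjusted calls, the random slide block 37, slide as a fixed block 1 and 9, and the arrays of slide 1, with 1 MASM + TBI rat assumed to vary like the controls, 0 and 10. Leaving out each rat gave 3 to 5 and 11 to 34, with 12 without control rat 2, 11 without control rat 3, and 12 and 15 without MASM + TBI rat 1 and rat 4. Unadjusted shares there were 44.1% of members and 15.2% of all probes with scaling, 36% and 16.9% with normexp and 33.3% and 22.5% with the random block. In MASM + TBI against TBI (0 and 5), scaling gave 2 and 3, normexp 1 and 16, the random slide block 2 and 14, the prior 12 and the 2-group model 8 unadjusted calls. Leaving out each rat gave 0 and 3 to 14, with 3 without TBI rat 2 or MASM + TBI rat 4 and 14 without TBI rat 3. All probes gave 13.3% adjusted calls here with scaling and 5% with the random block, against 1.8% of members in each.

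Scaling moved the median of the 76 genes from 0.13 to 0.28 in MASM + TBI against control and from -0.02 to 0.08 in MASM + TBI against TBI, where the median over all probes went from 0.04 to 0.08. It left 0 ribosome assembly factors called in MASM + TBI against control, in place of 1. With the replicate number as a block, TBI against control kept 3 adjusted calls with 18 unadjusted, and MASM + TBI against control had 0 and 13, so that Rps19, Rpl19 and Rpl3 had adjusted p of 0.058, 0.0677 and 0.108. Same-numbered rats of MASM + TBI and the other groups did not all deviate together (r from -0.34 to 0.36), so the numbers were not taken as pairs there. The consensus correlation within slides was -0.13. Slide as a fixed block allowed only MASM + TBI against control.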
